A study of Mus musculus with 4 samples.

Results

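The cytosolic ribosomal protein genes encode the proteins that, with the rRNAs, form the large and small subunits of the ribosome that translates nuclear mRNAs. Protein-coding genes were taken whose mouse symbol begins with Rpl or Rps and a number, with Rplp0 to Rplp2 or with Rpsa, leaving out genes named as pseudogenes and the Rps6k kinases. This gave 85 of the 15462 genes of the normalized table, and all 85 matches of the raw table of 37620 genes had passed the authors' filter on low values. They comprised 76 canonical genes (42 of the large subunit, 3 of its stalk and 31 of the small subunit), 8 paralogs that resemble a canonical gene, and Rps19bp1, which encodes a protein that binds Rps19. The paralogs and Rps19bp1 are described apart, so that counts and medians refer to the 76 canonical genes. The 85 genes were spread over 19 chromosomes, with at most 14 of them on 1 chromosome, chromosome 7.

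The 4 cultures were R1 mouse embryonic stem cells (mESCs) of strain 129/Sv, either wild type (WT) or lacking Cripto through a knockout (Cripto KO). Each genotype was kept in serum with leukaemia inhibitory factor (serum/LIF) or seeded sparsely in N2B27 medium with Activin A (20 ng per ml) and bFGF for 6 days (F/A), the treatment that turns mESCs into epiblast stem cells (EpiSCs). Cripto, encoded by Tdgf1, is a membrane co-receptor of Nodal. The Cripto KO cells are a clonal line, the sources used here do not say which clone was sequenced, and each condition has 1 library, which leaves every value without a replicate error and allows no test. The comparisons ask how the transition from ESC to EpiSC moved the ribosomal protein genes in each genotype, and how the genotypes differed within each medium.

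A mouse ribosome carries 1 copy of nearly every ribosomal protein, and free ribosomal proteins that are not built into a subunit are degraded, so cells keep the mRNAs of the family in near balance. These mRNAs are short, abundant and stable, and most begin with a cytosine followed by a run of pyrimidines, the 5′ terminal oligopyrimidine (TOP) sequence, through which mTORC1 signalling controls their translation. Ribosome production is known to track growth rate, and mESCs are among the fast-dividing cells of the mouse.

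Library totals were 15230856 counts in WT F/A, 15740587 in Cripto KO F/A, 16260578 in Cripto KO serum/LIF and 17315442 in WT serum/LIF. In Cripto KO F/A the count was odd for 3 of the 18700 genes detected, against 11046 to 11452 genes in each of the other libraries. Its counts were therefore divided by 2 wherever a counting interval was computed. The reason is not given in the sources used here, and any effect of it cannot be told apart from the condition of this library. Tdgf1 had 18714 counts in WT serum/LIF, 1572 in WT F/A, 945 in Cripto KO serum/LIF and 86 in Cripto KO F/A, so that each Cripto KO library was below the WT library of the same medium. The naive markers, summed over 6 genes, went from 3575 to 29.6 CPM (counts scaled by the library total) in WT cells and from 3196 to 46.3 in Cripto KO cells, with Nr0b1 at 0 counts in both F/A libraries. The EpiSC markers, summed over 7 genes, went from 174 to 1355 and from 187 to 664. Against the EpiSC label, the summed level of Pou5f1, which EpiSCs keep, and of Sox2 and Nanog was 176 CPM in WT F/A and 133 in Cripto KO F/A, compared with 2948 and 2579 in serum/LIF. In bulk RNA, fewer cells of a type and less RNA per cell cannot be told apart, and this holds for every difference given here.

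The TOP sequence lies at the start of the transcript, so the 30 bases from 10 before to 20 after the RefSeq start are shown (build GRCm38.p6, which is not the build of the counts). They are given for the members with the largest and the smallest change in WT cells that have an entry. Rpl35 and Rps10 were added because their change differed most between the genotypes among members with an entry and a TOP match. Capitals mark a TOP match, a C at or within 5 bases of the start followed by at least 5 pyrimidines, and the ETS core CCGGAAG, the site of ETS transcription factors such as GABP. RefSeq starts are annotated positions that need not be the true first base.
Rpl37a, chr1:72711250-72711279 (plus strand): ctcgccggtctaaaaccgcgcatgcgcatt
Rps21, chr2:180257369-180257398 (plus strand): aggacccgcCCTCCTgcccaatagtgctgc
Rpl31, chr1:39367841-39367870 (plus strand): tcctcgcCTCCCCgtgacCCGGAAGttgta
Rpl35, chr2:39005112-39005141 (minus strand): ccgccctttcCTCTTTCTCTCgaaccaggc
Rps10, chr17:27635225-27635254 (minus strand): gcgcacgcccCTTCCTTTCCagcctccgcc
Rpl4, chr9:64173377-64173406 (plus strand): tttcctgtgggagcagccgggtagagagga
Rps4x, chrX:102189372-102189401 (minus strand): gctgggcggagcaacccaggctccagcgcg
Rpl23, chr11:97782420-97782449 (minus strand): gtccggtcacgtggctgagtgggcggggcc
Rps21, Rpl31, Rpl35 and Rps10 hold a TOP match, and Rpl37a, Rpl4, Rps4x and Rpl23 hold none in these letters.

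A RefSeq promoter, 250 bases before to 50 after the start, was given for 55 of the 76 canonical genes. A gene was counted for a motif if any of its promoters held it. A TOP match stood at the start of 25 of the 55 (45.5%), compared with 12.9% of 10203 other genes of the normalized table and 11.95% of all 27025 genes with a promoter. The ETS core, on either strand, was in 22 of the 55 (40%), compared with 18.2% of the other genes and 9.93% of all genes with a promoter. The core motif of the factor YY1, on either strand, was in 5 (9.09%), compared with 4.77% and 3.19%. The TATA box TATAAA, within 50 bases before the start and on the gene's strand, was in 0 of the 55, compared with 1.78% and 3.15%. The median log2 change in WT cells, described below, was −1.03 for the 25 genes with a TOP match and −0.88 for the 30 without, and −1.05 for the 22 with the ETS core and −0.85 for the 33 without. In Cripto KO cells the corresponding medians were −0.21 and −0.13 for the TOP match and −0.14 and −0.18 for the ETS core. Within F/A, Cripto KO against WT, they were 0.59 and 0.53 for the TOP match and 0.67 and 0.52 for the ETS core. None of these differences between genes with and without a motif was tested.

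The canonical ribosomal protein genes took 7.12% of all counts in WT serum/LIF, 3.61% in WT F/A, 6.41% in Cripto KO serum/LIF and 5.56% in Cripto KO F/A. Their share was thus lowest in WT F/A, and the 95% Wilson intervals, which cover counting error only, were 7.11 to 7.14%, 3.60 to 3.62%, 6.40 to 6.42% and 5.54 to 5.58%. When counts were divided by transcript length and scaled to the library, so that levels could be compared between genes, the shares were 12.3%, 6.92%, 11.3% and 10.1%. Of the 100 genes with the most counts, 32 were canonical ribosomal protein genes in WT serum/LIF, 8 in WT F/A, 28 in Cripto KO serum/LIF and 23 in Cripto KO F/A. On the authors' quantile-normalized values, WT F/A was the lowest of the 4 libraries for all 76 genes, and WT serum/LIF was the highest for 66. The 4 libraries stood in the order WT serum/LIF, Cripto KO serum/LIF, Cripto KO F/A and WT F/A, from high to low, for 54 of the 76.

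**Figure D1:**
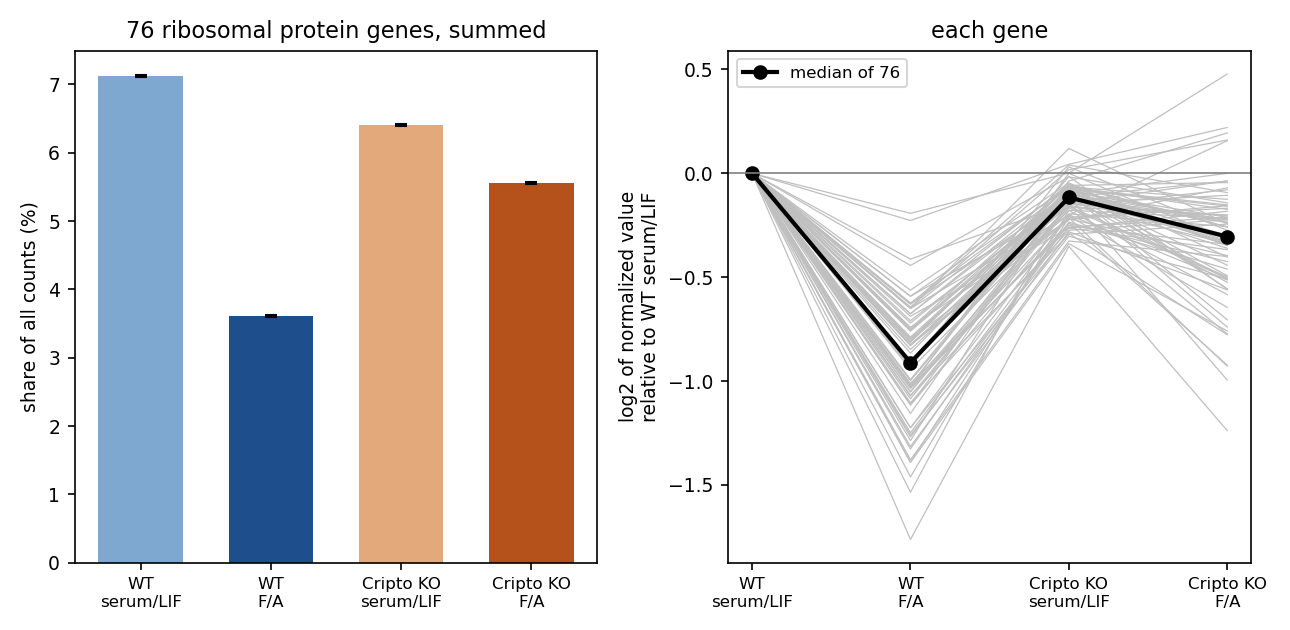
Left, share of all counts (%) on the 76 canonical ribosomal protein genes in each of the 4 libraries, with 95% Wilson intervals; right, log2 of each gene's normalized value relative to WT serum/LIF (grey lines, 1 per gene; the lines join unordered libraries only to identify a gene) with the median in black. The share is 3.61% in WT F/A and between 5.56% and 7.12% in the other libraries, and every grey line is lowest in WT F/A.

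In WT cells, the normalized value of all 76 canonical genes was lower after F/A than before it, whereas 52.5% of all 15462 genes were lower by any amount. The median log2 change was −0.91, that is, 0.532 of the serum/LIF value, and the genes ranged from −1.76 to −0.19. At least 2-fold lower were 30 of the 76 (39.5%) and at least 2-fold higher were 0, where 20.9% and 22.1% of all genes passed these folds. All 76 genes had a 95% counting interval of the change (Clopper-Pearson on raw counts, centred on the normalized ratio) wholly below 0, and for 23 it lay wholly beyond 2-fold. The members just inside the fold of 2 were Rpl34 at −1.01, Rps12 at −1.02 and Rps23 at −1.03, and those just outside were Rps3 at 0.501 of the serum/LIF value, Rps27 at −0.99 and Rps16 at −0.94. The fold of 2 thus cuts through the middle of the family and separates no group of genes.

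The largest change in WT cells was that of Rpl37a, a zinc-finger protein of the large subunit (chromosome 1, 72757834 to 72760383, plus strand, NCBIM37). It had 10604 raw counts in WT serum/LIF, 2819 in WT F/A, 7815 in Cripto KO serum/LIF and 4058 in Cripto KO F/A. Both F/A libraries were below both serum/LIF libraries, and its log2 change was −1.76 (95% counting interval −1.82 to −1.70) in WT and −0.89 (−0.96 to −0.82) in Cripto KO cells. Rps21, of the small subunit, had 9720, 3038, 8637 and 4378 counts in the same order, with log2 changes of −1.54 (−1.59 to −1.48) and −0.88 (−0.95 to −0.81). Rps29 changed by −1.39 and Rpl31 by −1.39 in WT cells. These are 4 of the 5 most negative changes in WT cells, and the other was that of the stalk gene Rplp1.

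Among the members with the smallest changes in WT cells was Rpl4, of the large subunit. Rpl4, one of the longer members, had 44219, 26624, 38283 and 38000 counts and changed by −0.23 (−0.25 to −0.21) in WT cells and 0.18 (0.15 to 0.20) in Cripto KO cells. Rpl4 is so abundant that its value depends on the scaling, since the ratio of raw counts scaled by library totals was 0.684 in WT cells and 1.03 in Cripto KO cells, compared with 0.854 and 1.13 after quantile normalization. Small changes in WT cells were also those of Rpl7 (−0.41), Rps4x (−0.44) and Rpl23 (−0.56).

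The lateral stalk of the large subunit, which recruits translation factors with GTPase activity, is built on Rplp0, with Rplp1 and Rplp2 bound to it. Rplp0 had 23264 counts in WT serum/LIF, 8732 in WT F/A, 18442 in Cripto KO serum/LIF and 14314 in Cripto KO F/A. Rplp1 had 25949, 7524, 20859 and 14620, and Rplp2 had 13953, 5226, 10705 and 7462. All 3 had the order of libraries described for most of the family, and all 3 were at least 2-fold lower in WT F/A, with log2 changes of −1.12, −1.46 and −1.22. Their median change was −1.22 in WT cells and −0.41 in Cripto KO cells, compared with −0.83 and −0.14 for the 42 other large subunit genes and −0.92 and −0.20 for the 31 small subunit genes. The transcripts of Rplp1 (495 bases) and Rplp2 (457 bases) are shorter than the family median of 640 bases, whereas that of Rplp0 (774 bases) is longer. Relative to the length trend described below, the stalk medians were −0.81 in WT and −0.20 in Cripto KO cells. Those of the 76 genes were −0.45 and −0.03.

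Rpsa, a small subunit protein that also serves as a laminin receptor, had the most counts of the family in WT serum/LIF, with 48264, and had 18170 in WT F/A, 36477 in Cripto KO serum/LIF and 31638 in Cripto KO F/A. Its log2 change was −1.03 (−1.06 to −1.01) in WT and −0.09 (−0.12 to −0.06) in Cripto KO cells. Rps27a, which is made as a fusion with ubiquitin, had 14781, 7439, 13686 and 10522 counts and changed by −0.75 and −0.29. Of 3 subunits that the naming rule misses, 3 were lower in F/A in WT cells, 1 of them at least 2-fold, and in Cripto KO cells 1 was lower and 2 were higher. The ubiquitin-like fusion Fau had 5325, 3195, 4679 and 5332 counts, and the scaffold protein Gnb2l1 (RACK1) had 39061, 18599, 33644 and 32284. These are the 2 that were higher, and their log2 changes in WT cells were −0.64 and −0.64, and in Cripto KO cells 0.23 and 0.09. Rpl41 was not analysed here, because the annotation used does not name it among the genes of the tables.

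Members with well-known roles beyond a structural one were added after their values were seen. Rps6, whose phosphorylation is a common readout of mTORC1 activity, had 10215 counts in WT serum/LIF, 5960 in WT F/A, 8778 in Cripto KO serum/LIF and 8872 in Cripto KO F/A. Rpl5 had 22904, 11961, 19979 and 17762, and Rpl11, with which it forms the 5S particle that binds Mdm2, had 13609, 5674, 10879 and 10592. For these 3 genes WT F/A was the lowest library and Cripto KO F/A was within a narrow range of Cripto KO serum/LIF, with log2 changes of −0.59, −0.59 and −1.03 in WT and 0.08, −0.06 and 0.04 in Cripto KO cells. Rps19, mutated in Diamond-Blackfan anaemia, had 12297, 5955, 9933 and 9290 counts and changed by −0.83 and −0.06. Rpl38, known for axial skeleton defects in mutant mice, had 4893, 1879, 3780 and 3110 and changed by −1.26 and −0.21. Rpl13a, often used as a reference gene for qPCR, had 32700, 10630, 27869 and 22378 counts, and changed by −1.29 and −0.26.

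Transcript length moved with the change in WT cells. Canonical ribosomal protein transcripts have a median length of 640 bases (range 345 to 1861), compared with 1787 bases over all genes, and short transcripts in general were lower in WT F/A. A running median over the 9653 genes with a mean normalized value above 200 lay at −0.41 at the lengths of the members in WT cells (range −0.64 to −0.09) and at −0.17 in Cripto KO cells. Relative to this trend, the median change of the 76 genes was −0.45 in WT cells, with 74 lower, 2 higher and 2 rather than 30 at least 2-fold lower. In Cripto KO cells it was −0.03, with 44 lower and 32 higher. There were 2971 other protein-coding genes within the family's range of lengths and with a mean level at or above its lowest member. Their median change was −0.27 in WT and −0.09 in Cripto KO cells. Their median length was 903 bases, and they were not matched to the members in length or level. Across the 76 genes, Spearman's rho between length and change was 0.30 in WT cells and 0.14 in Cripto KO cells, a description in which all points come from the same pair of libraries. What made short transcripts lower in WT F/A was not tested.

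**Figure D2:**
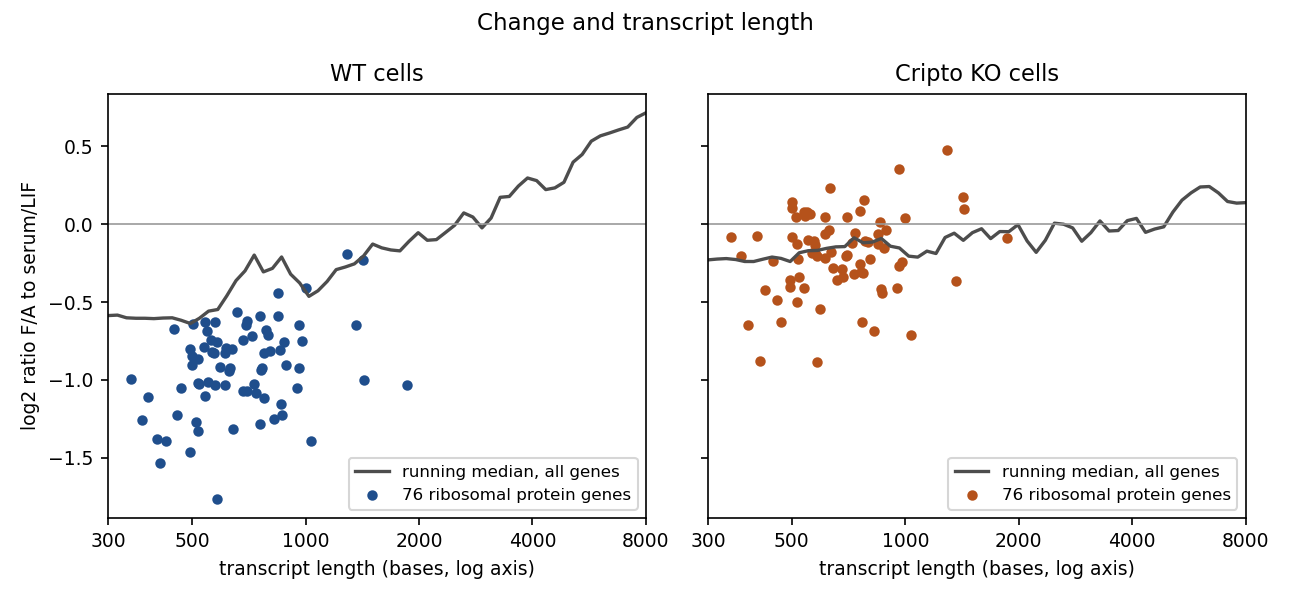
Log2 ratio of F/A to serum/LIF against median transcript length in bases (log axis) in WT cells (left) and Cripto KO cells (right), with points for the 76 canonical ribosomal protein genes. The line, labelled as all genes, is the running median of the 9653 genes with a mean normalized value above 200. In WT cells the line is highest for the longest transcripts and lies at a median of −0.41 at the members' lengths, and 74 of the 76 points lie below it; in Cripto KO cells 44 lie below it.

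Ribosomal protein genes have many processed pseudogenes, and reads from near-identical copies may be split or dropped by the counting. A median of 49.6% of a canonical gene's stretches of 50 bases also occurred elsewhere in the genome (range 0 to 99.7%), and 70 of the 76 genes shared over 10%. For the 6 genes that shared at most 10%, the medians were −0.87 (WT) and −0.20 (Cripto KO), and the 38 that shared over 50% had −0.83 and −0.14. The 163 genes named as ribosomal protein pseudogenes in the raw table took 0.308 to 0.351% of the counts on pseudogenes and canonical genes together in the 4 libraries. The counts of single genes with a high share, such as Rps27 (99.7%) and Rpl29 (74.9%, with 97 other loci), are therefore uncertain as levels.

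In Cripto KO cells, 58 of the 76 canonical genes had a lower F/A value and 18 a higher one, where 52.8% of all genes were lower. The median log2 change was −0.18, that is, 0.880 of the serum/LIF value, with a range from −0.89 to 0.48. At least 2-fold lower were 0 of the 76 and at least 2-fold higher were 0, where 19.4% and 19.9% of all genes passed these folds. The counting interval lay wholly below 0 for 55 genes and wholly above 0 for 13, and it held 0 for 8. The split of lower to higher genes depended on the correction for length, as given above (44 and 32). The members nearest to the fold of 2 were Rpl37a at −0.89, Rps21 at −0.88 and Rpl31 at −0.71, followed by Rpl14 at −0.69 and Rps28 at −0.65.

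Among the most positive changes in Cripto KO cells was that of Rps7, of the small subunit, with 9710 counts in serum/LIF and 11602 in F/A, compared with 11950 and 6404 in WT cells. Its log2 change was 0.36 (0.31 to 0.40) in Cripto KO and −0.65 (−0.69 to −0.61) in WT cells, so that the intervals lay on opposite sides of 0. Rps14, which lies in the platform of the small subunit, had 18379 and 20344 counts in Cripto KO cells and 21591 and 8829 in WT cells, with changes of 0.23 and −0.93. Rpl17 changed by 0.15 in Cripto KO cells. The genes that were higher in Cripto KO F/A included Rpl4, Rpl7, Rpl11, Rpl15, Rpl17, Rpl18, Rpl23a, Rpl27, Rpl28, Rpl35, Rpl39, Rps3, Rps6, Rps7, Rps10, Rps14 and Rps15. They are listed because of this outcome, that is, after their values were seen.

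**Figure D3:**
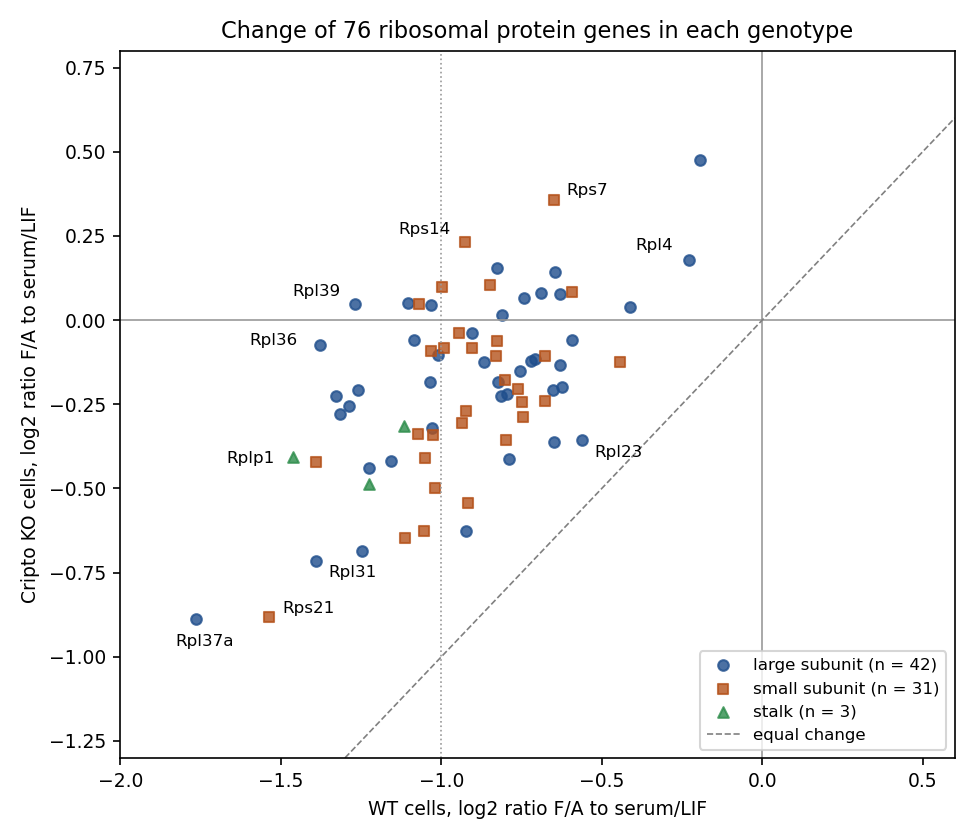
Log2 ratio of F/A to serum/LIF in WT cells (x axis) and Cripto KO cells (y axis) for the 76 canonical ribosomal protein genes, 1 point per gene, with the dashed line marking equal change and the dotted line a WT value 2-fold lower in F/A, and with symbols for the large subunit, the small subunit and the stalk. All 76 points lie left of 0 and above the dashed line, and 18 lie above 0 on the y axis.

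All 76 canonical genes had a more negative change in WT than in Cripto KO cells, where 49.9% of all genes did. So did 1899 of the 2971 other genes described above, with a median difference of 0.18. For the 76 genes, the difference of the 2 log2 changes, Cripto KO minus WT, had a median of 0.71 and ranged from 0.21 to 1.32. Relative to the length trend their median was 0.44, with all 76 genes still above 0. Rpl39, a small basic protein at the exit tunnel, had the largest difference, 1.32, with 4206 counts in WT serum/LIF, 1624 in WT F/A, 3351 in Cripto KO serum/LIF and 3290 in Cripto KO F/A. The Cripto KO libraries thus had almost the same count, with a change of 0.05 (−0.04 to 0.13), whereas WT F/A stood apart. Rpl36 followed at 1.30, with 6640, 2356, 5073 and 4638 counts. Rps14 and Rpl35 each differed by 1.16, and Rps10 by 1.12. The smallest differences were those of Rpl23 (0.21), Rpl3 (0.29), Rpl21 (0.30) and Rps4x (0.32).

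The order of the genes by change was partly shared between the genotypes, which have no library in common. Across the 76 genes, the WT and Cripto KO changes had a Pearson's r of 0.58 and a Spearman's rho of 0.45, a description over genes that share length and base composition. Rpl37a, Rps21 and Rpl31 were among the 5 most negative in both genotypes, and Rpl4 was among the 5 most positive in both.

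Within F/A, all 76 canonical genes were higher in Cripto KO than in WT cells, where 48.8% of all genes were lower. The median log2 difference was 0.57, a ratio of 1.48, with a range from 0.16 to 1.12, and relative to the length trend it was 0.34, with 74 genes higher and 2 lower. At least 2-fold higher were 2 of the 76, Rps14 (1.12, counting interval 1.08 to 1.16) and Rpl39 (1.06, 0.96 to 1.16), and at least 2-fold lower were 0, where 4.57% and 5.69% of all genes passed these folds. Of the 2971 other genes described above, 1907 were higher and 1056 lower, 30 and 24 of them at least 2-fold, with a median of 0.16. Rps3 lay just outside at a ratio of 1.998, and its ratio of raw counts scaled by totals was 2.09, whereas that of Rpl39 was 1.96. Which genes pass the fold therefore depends on the scaling. Rpl36 (0.98) and Rpl13a (0.96) came next, and the smallest differences were those of Rpl23 (0.16), Rpl21 (0.22), Rpl30 (0.28), Rps24 (0.28) and Rps4x (0.30). Both F/A libraries enter this comparison and the transitions above, so it is not a separate observation.

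Other genes differed between the F/A libraries too. All 6 fibroblast markers in the table were higher in Cripto KO F/A, with a summed level of 72.2 CPM in WT F/A and 190 in Cripto KO F/A (115 and 123 in serum/LIF). Of the 6 trophoblast markers, 5 were higher and 1 lower, with sums of 139 and 266. The median log2 differences were 1.18 and 0.29, and 3 and 2 genes were at least 2-fold higher, where 4.57% of all genes were. None of these markers was at 0 in an F/A library. All 7 EpiSC markers were lower, 4 of them at least 2-fold, where 48.8% and 5.69% of all genes were. The part of these markers in the difference of the ribosomal protein genes was not tested.

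Within serum/LIF, 69 of the 76 canonical genes were lower in Cripto KO than in WT cells, 6 were higher and 1 was equal, where 48.9% of all genes were lower. The differences were small, with a median log2 difference of −0.12 and a range from −0.35 to 0.12, and relative to the length trend the median was −0.06, with 58 genes lower and 18 higher. At least 2-fold lower or higher were 0 of the 76, where 2.73% and 2.86% of all genes passed. Of the 2971 other genes described above, 4 were at least 2-fold lower and 11 at least 2-fold higher. The counting interval lay wholly below 0 for 66 genes, above 0 for 3 and across 0 for 7. Rpl37a (−0.35), Rps29 (−0.34), Rpl36 (−0.33), Rpl38 (−0.30) and Rps10 (−0.29) had the most negative values. Rpl3, the protein next to the peptidyl transferase centre, had the most positive, 0.12, with 41032 counts in WT and 37846 in Cripto KO cells. Rpl4, Rpl22 and Rpl18 were also above 0, at 0.02 to 0.04. With raw counts scaled by library totals, 74 genes were lower and 2 higher, and the ratio was 0.982 for Rpl3 and 0.922 for Rpl4, whereas it was 1.04 for Rpl22 and 1.02 for Rpl18.

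The order of the levels within the family was largely shared between libraries. Rps18 was the highest and Rpl29, Rps13 and Rpl34 were the lowest 3 in each of the 4. Per length, the highest levels in WT serum/LIF were those of Rps18 (3838), Rplp1 (3681), Rps12 (3529), Rpl8 (3517) and Rpl12 (3410), in TPM (counts per length, scaled to the library, with the median transcript length of each gene). The lowest canonical level was that of Rpl29 (67.1), of whose 50-base stretches 74.9% also occur elsewhere in the genome. In WT F/A the levels of the same 5 genes were 2078, 1360, 1779, 1494 and 1633, so that Rplp1, next to Rps18 in serum/LIF, was below Rps12, Rpl8 and Rpl12. In Cripto KO F/A they were 3461, 2415, 2396, 2347 and 2597. Over the 76 genes, Pearson's r of the log2 levels was 0.952 between the WT libraries, 0.957 between the Cripto KO libraries, 0.995 between the serum/LIF libraries and 0.973 between the F/A libraries. These are correlations across genes, which are not independent replicates.

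The paralogs behaved less uniformly than the canonical genes. All 8 were lower in WT F/A and 6 were at least 2-fold lower, where 52.5% and 20.9% of all genes were. In Cripto KO cells 7 were lower and 4 at least 2-fold lower, where 52.8% and 19.4% of all genes were. Rpl10l and Rpl39l, autosomal copies of X-linked genes that are best known from male germ cells, had clear counts in serum/LIF and almost none in F/A in both genotypes. The sequences from 120 bases before to 10 after their RefSeq starts (GRCm38.p6) are shown because these are the genes with the largest changes, with the ETS core in capitals.
Rpl10l, chr12:66284392-66284521 (minus strand): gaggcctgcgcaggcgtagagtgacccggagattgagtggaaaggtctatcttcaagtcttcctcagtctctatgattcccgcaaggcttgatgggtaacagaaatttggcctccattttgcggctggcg
Rpl39l, chr16:10170108-10170237 (plus strand): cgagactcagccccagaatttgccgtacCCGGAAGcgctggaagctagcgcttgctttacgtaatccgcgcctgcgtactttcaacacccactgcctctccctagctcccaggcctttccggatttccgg
Neither has a TOP match, and of the 7 paralogs with a RefSeq promoter 1, Rpl22l1, has one.

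Rpl10l had 2925 counts in WT serum/LIF and 1547 in Cripto KO serum/LIF, and 0 in both F/A libraries. Against a floor of 3 counts in WT F/A and 6 in Cripto KO F/A, it was at least 858-fold lower in WT and at least 250-fold lower in Cripto KO cells. Its canonical partner Rpl10 had 14508, 7808, 13141 and 10654 counts, so that Rpl10l made up 16.8% of the counts of the pair in WT serum/LIF, 10.5% in Cripto KO serum/LIF and none in F/A. Within serum/LIF, Rpl10l was 0.556 of the WT value in Cripto KO cells, with a log2 difference of −0.85 (−0.94 to −0.76). A share of 26.3% of its 50-base stretches occurs elsewhere.

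Rpl39l had 759 counts in WT serum/LIF, 1 in WT F/A, 519 in Cripto KO serum/LIF and 0 in Cripto KO F/A, and shared no stretch with another locus. Its ratio of raw counts in WT cells was 0.0015, with a 95% interval from 3.8e-05 to 0.0084, and in Cripto KO cells it was at least 83.7-fold lower in F/A. Rpl39, its partner, had 4206, 1624, 3351 and 3290 counts. The pair thus parted in both genotypes. Rpl39l made up 15.3% of the counts of the pair in WT serum/LIF and 0.06% in WT F/A. In Cripto KO cells, where Rpl39 hardly changed, it made up 13.4% in serum/LIF and 0% in F/A. Rpl3l, known from heart and skeletal muscle, was near the detection limit, with 42, 4, 17 and 0 counts, and was at least 2.74-fold lower in Cripto KO F/A than in Cripto KO serum/LIF.

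Rps4y2, the name that the annotation gives to an autosomal relative of Rps4x, had 5284, 1324, 4165 and 1604 counts. In both genotypes the F/A value was the lower one, with log2 changes of −1.91 in WT and −1.35 (−1.46 to −1.24) in Cripto KO cells, whereas its partner Rps4x changed by −0.44 and −0.13. Rps27l, a target gene of p53, had 3172, 1219, 2129 and 2076 counts, with changes of −1.27 (−1.37 to −1.18) and 0.03 (−0.08 to 0.13), and its partner Rps27 had 5085, 2383, 4657 and 4218. Rps27l was also lower in Cripto KO than in WT cells in serum/LIF, by −0.51. Rpl22l1 had 1808, 822, 1529 and 1062 counts and changed by −1.07 and −0.53. Rpl7l1, with 4487, 2065, 4129 and 2596 counts, lay just outside the fold of 2 in WT cells at −0.99, and Rpl36al, with 1930, 1142, 1842 and 1380, changed by −0.68 and −0.39. Rps19bp1 had 593, 290, 604 and 334 counts and changed by −0.92 and −0.89, nearly alike in the genotypes.

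**Figure D4:**
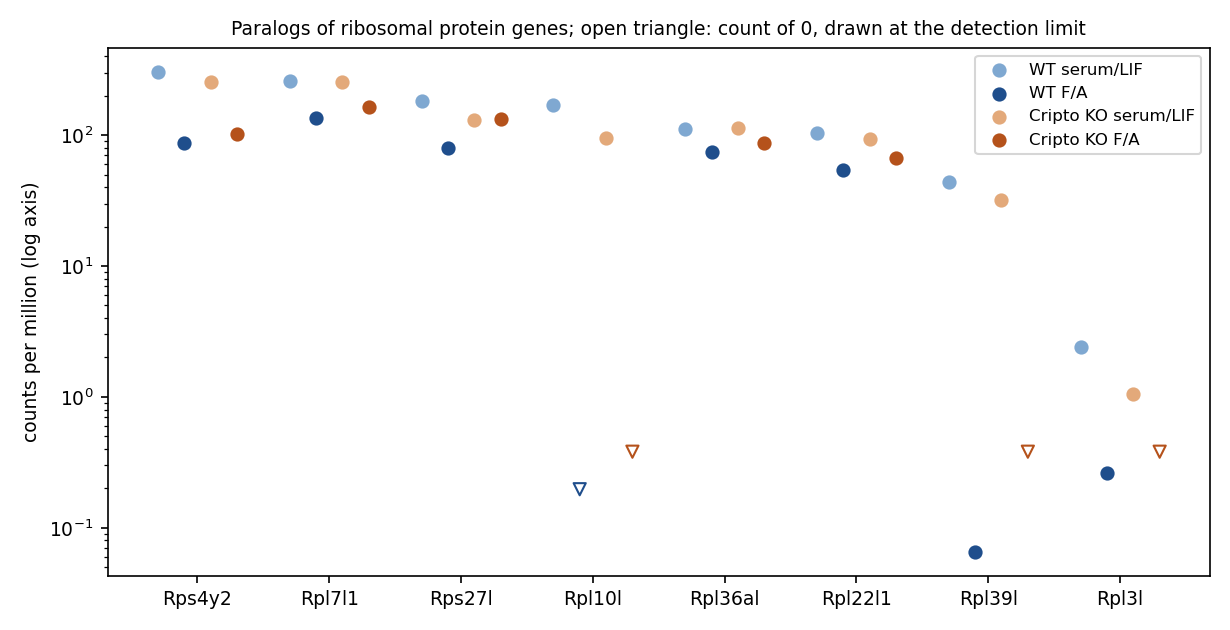
CPM (log axis) of the 8 paralogs in the 4 libraries, 1 point per library, with open triangles for a count of 0 drawn at the detection limit of 3 counts (6 in Cripto KO F/A). Rpl10l and Rpl39l lie at or below the limit in both F/A libraries, and Rps27l is lower in WT F/A than in the other libraries.

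Genes that make ribosomes and genes that use them were compared with the family by lists of known function. For the 48 nucleolar factors of ribosome biogenesis the median was −0.67 (WT) and −0.44 (Cripto KO). Lower were 44 (91.7%) and 42 (87.5%) of them, where 52.5% and 52.8% of all genes were. At least 2-fold lower were 9 (18.8%) and 5 (10.4%), below the 20.9% and 19.4% of all genes. In WT cells they ranged from Nop10 (−1.84), a subunit of the pseudouridylation complex, to the helicase Ddx21 (1.02). The 14 genes of RNA polymerase I and its factors had −0.56 and −0.54, from Znrd1 (−1.66) to Taf1d (0.17) in WT cells. The 7 snoRNA host genes, noncoding RNAs with a TOP start, had −0.66 and −0.62, from Snhg1 (−1.31) to Snhg7 (1.53). The differences of the transitions, 0.17, 0.04 and −0.20 as medians of these 3 lists, were smaller than the 0.71 of the ribosomal protein genes, and that contrast was not tested.

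The 16 translation factors whose mRNAs carry a TOP start had medians of −0.24 (WT) and 0.12 (Cripto KO). In WT cells 10 (62.5%) were lower and 6 higher, where 52.5% of all genes were lower. They ranged from Eef1b2 (−1.27), an exchange factor of the elongation factor 1 complex, to Hnrnpa1 (0.44) in WT cells. Relative to the length trend their medians were 0.00 and 0.20. The 32 initiation factors had −0.26 and 0.05, from Eif3k (−1.57) to Eif4g3 (2.25). The 19 genes of the mTORC1 pathway had 0.11 and −0.05, from Akt1s1 (−0.84) to Sesn3 (1.76). The 10 genes of the Myc family had −0.64 and −0.50, and went in both directions. Mycn, the main Myc gene of the epiblast, had 2737 counts in WT serum/LIF, 1518 in WT F/A, 3929 in Cripto KO serum/LIF and 2670 in Cripto KO F/A, Myc had 251, 1221, 397 and 1138, and the largest changes in WT cells were those of Mxd3 (−2.43) and Mycl1 (2.74). The 9 genes of ribosomal stress and chaperones of ribosomal proteins had −0.34 and −0.17, from Bccip (−1.09) to Cdkn1a (0.37).

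The lists whose pattern was closest to that of the family were other large complexes with short transcripts. The 75 mitochondrial ribosomal protein genes had medians of −0.86 (WT) and −0.30 (Cripto KO), from Mrps24 (−2.43) to Mrpl48 (0.14) in WT cells. Lower were 73 (97.3%) and 54 (72%) of them, where 52.5% and 52.8% of all genes were. At least 2-fold lower were 27 (36%) in WT cells, where 20.9% of all genes were, and 6 (8%) in Cripto KO cells, below the 19.4% of all genes. Of these 75, 74 had a more negative change in WT cells, where 49.9% of all genes did, with a median difference of 0.56. The 39 proteasome subunit genes had −0.59 and 0.02, with a median difference of 0.51. Lower were 35 (89.7%) and 18 (46.2%) of them, where 52.5% and 52.8% of all genes were. They ranged in WT cells from Psma8, a subunit known from testis with 491, 0, 412 and 2 counts, to the immunoproteasome gene Psmb8 (7.57). Over all genes the medians were −0.07 and −0.07, and the median difference was −0.00. Lower values in WT F/A with a smaller change in Cripto KO cells were thus measured in these lists too. Relative to the length trend, the medians were −0.60 and −0.18 for the mitochondrial ribosomal protein genes and −0.31 and 0.10 for the proteasome. The 7 snoRNA host genes, with a median length of 629 bases, had −0.66 and −0.62, and −0.16 and −0.45 relative to the length trend. The part of length in the pattern was not tested.

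**Figure D5:**
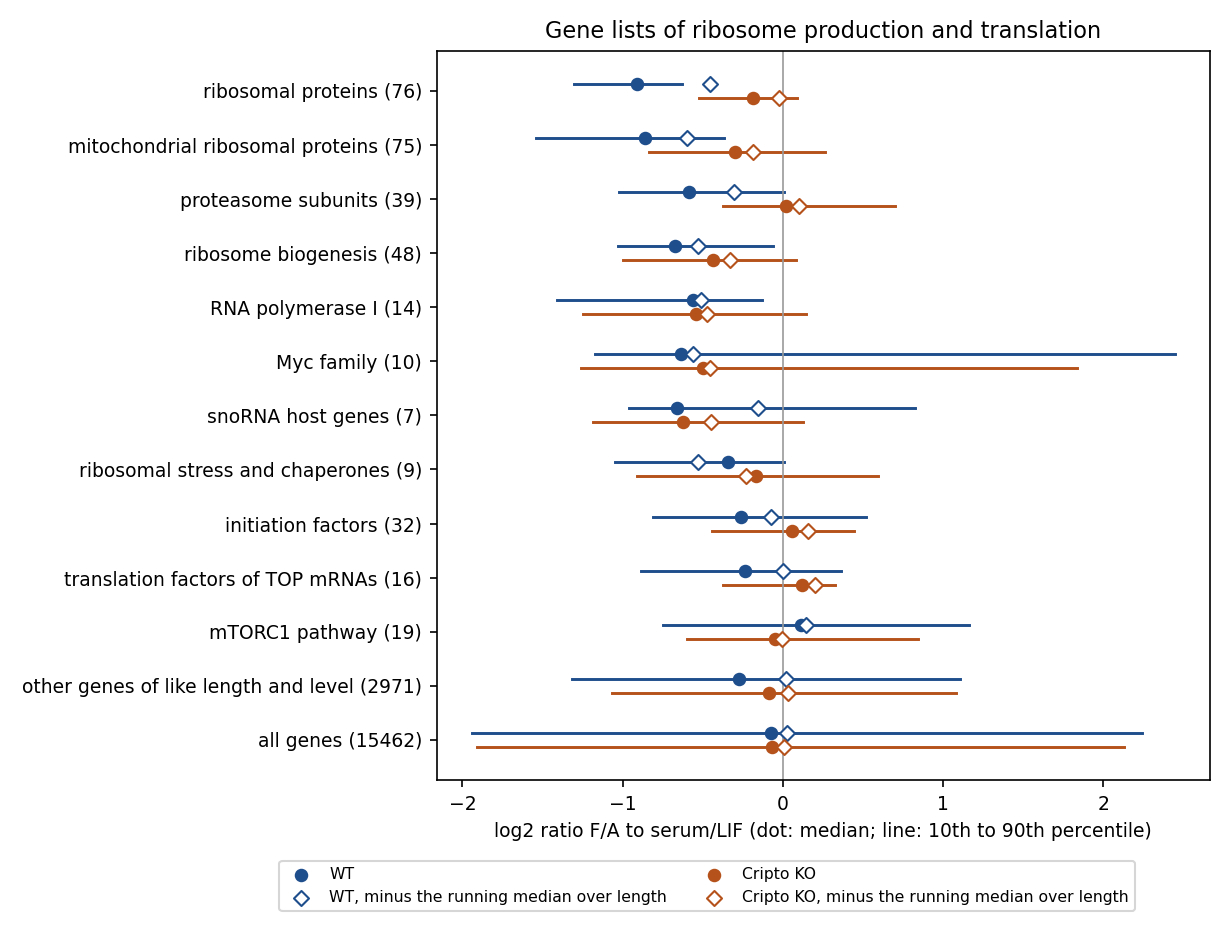
Log2 ratio of F/A to serum/LIF for gene lists (number of genes in parentheses) in WT cells (blue) and Cripto KO cells (orange), with dots for the median, lines from the 10th to the 90th percentile of genes and open diamonds for the median relative to the length trend. The blue and orange dots are farthest apart for the ribosomal proteins (−0.91 and −0.18), the proteasome (−0.59 and 0.02) and the mitochondrial ribosomal proteins (−0.86 and −0.30).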

How the data were processed

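RNA of 4 cultures was sequenced as paired-end libraries on an Illumina HiSeq, 1 library per condition. Reads were aligned by the authors to mm9 (NCBIM37) with TopHat2 2.0.13 and counted per gene with HTSeq 0.6.1p1, and the authors deposited the raw count of each gene. A second table that the authors deposited holds a signal, namely fully quantile-normalized counts of the genes that passed their proportion filter (threshold 1 CPM). The strand setting of the counting is not given in the sources used here. Quantile normalization of the raw table gave the deposited values for 100% of 61848 values (within 0.01).

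Groups came from the sample labels, and 0 columns lacked a sample. Symbols, coordinates and transcript lengths (median over the transcripts of a gene) came from the Ensembl 65 annotation of NCBIM37, which named 15424 of 15462 genes, whereas the counting annotation was Ensembl 67. The members and the gene lists were chosen with earlier results of these data known. Log2 changes used the normalized values with 0 replaced by 0.5, and a gene was called at 2-fold or more. The study's simulated replicates were not used, and no p-value was computed. Intervals were Clopper-Pearson at 95% on raw counts scaled by library totals, with Cripto KO F/A counts divided by 2, and cover counting error only. Their median half-width was 0.042 on the log2 scale in the WT transition. Shared sequence was the share of a gene's 50-base stretches found elsewhere in NCBIM37. Length trends were running medians over 401 genes. Named genes were the paralogs with their partners, the 5 most positive and negative members of each comparison and of the difference, the 5 highest and lowest levels, the stalk genes, Rpsa, Rps27a, members next to the fold of 2, and the extremes of each list. Others were named after their values were seen. Alternatives were scaling by totals, TMM factors (edgeR 4.0.16), size factors (DESeq2 1.42.0), halved counts before normalization, 5 added to each value, a mean of at least 50 counts, no filter, the length trend, folds of 1.5 and 3, paralogs included, members with shared sequence left out, and the 10 most abundant genes left out. Scripts used Python 3.11.15, numpy 2.4.6, pandas 2.3.3, scipy 1.17.1, matplotlib 3.10.9 and R 4.3.3, and were tested on simulated data. Proteins were not analysed here, and the values of some genes are not reported here.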

Additional observations from a re-analysis of the deposited data

How the results depend on the processing

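With 1 library per condition, no replicate could be left out, and no paired analysis was possible because each condition has 1 library and no test was run. Of 106 values recomputed under other settings, 76 stayed within the counting interval or within 1.5 times the count and 30 moved, and none changed direction. In WT cells the median log2 change of −0.91 became −0.98 with scaling by totals, −0.97 with TMM factors, −0.97 with DESeq2 size factors, −0.87 in the 6 genes with little shared sequence and −0.45 relative to the length trend. The same trend moved the median to −0.0269 in Cripto KO cells, 0.34 in F/A, −0.0557 in serum/LIF and 0.44 for the difference of the transitions, which was 0.63 in those 6 genes. The count of 30 genes at least 2-fold lower in WT cells became 2 relative to the length trend, 1 of the 6 genes, 71 at a fold of 1.5 and 1 at a fold of 3. In Cripto KO cells the count of 0 became 4 with paralogs and 7 at a fold of 1.5. In F/A the count of 2 became 4 with TMM factors, 0 relative to the length trend, 0 of the 6 genes, 35 at a fold of 1.5 and 0 at a fold of 3. In serum/LIF the count of 0 became 1 with paralogs. With paralogs, the shares of counts were 7.24% in WT serum/LIF, 3.65% in WT F/A, 6.51% in Cripto KO serum/LIF and 5.61% in Cripto KO F/A, and without the 10 most abundant genes of each library they were 7.54%, 3.77%, 6.76% and 5.83%. The length trend includes the members and takes out any change they share with other short transcripts. It lay at −0.41 at the members' lengths in WT cells, so subtracting it lowered the count there. Leaving out genes with shared sequence leaves 6 genes, which lowers the counts by construction. Depth limits only Rpl3l and the paralogs at 0 counts, and variation between cultures was not measured.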
